A study of Homo sapiens with 12 samples.

Results

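Transcript levels of 10 circadian clock genes were read in LM3 cells, which descend from the human breast cancer line MDA-MB-231 (triple-negative) and metastasise to the lung, in which the acyl-CoA synthetase ACSL5 was knocked down or not and to which palmitic acid was given or not. The genes are PER1, PER2, PER3, CRY1, CRY2, NR1D1, NR1D2, DBP, TEF and BHLHE40. They were taken from the count table by symbol, 10 of its 57730 genes, and all 10 passed the filter on low counts, as did 14706 genes in all. ACSL5 activates long-chain fatty acids by joining them to coenzyme A, and palmitic acid is a saturated fatty acid on which such enzymes act. The series concerns the role of ACSL5 when breast tumours colonise the lung.

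The 12 libraries of polyA RNA form 4 groups of 3. The shACSL5_PA group holds cells with a short hairpin RNA against ACSL5 and palmitic acid, the shACSL5 group the same cells without it, the shControl_PA group cells with a control hairpin and palmitic acid, and the shControl group those cells without it. All groups share the cell line and a DMEM medium with fetal bovine serum. The sources used here give neither the number of hairpins or clones behind each cell type nor the dose, vehicle and duration of the palmitic acid, the hour of harvest or any synchronisation. A vehicle and palmitic acid therefore cannot be told apart, and no phase of a rhythm can be read from these levels. Nothing says that the 3 libraries of a group came from separate cultures, so p-values cover the spread among the libraries alone, and that spread may be technical.

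The mammalian clock is a feedback loop of transcription. CLOCK or its relative NPAS2 pairs with BMAL1, and the pair binds E-box sequences and switches on the PER and CRY genes, whose proteins return to the nucleus and shut the pair down. NR1D1 and NR1D2 (REV-ERB alpha and beta) are nuclear receptors that repress BMAL1 through ROR elements, where the RORs activate it. DBP and TEF are PAR bZIP activators that bind D-boxes, and BHLHE40 (DEC1) is a repressor that competes for E-boxes and also answers to hypoxia and many other signals. Most cell types, cancer lines included, transcribe these genes, and unsynchronised cultures average over cells at different phases.

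The short sequences through which these factors act were searched in promoter windows from RefSeq (GRCh38.p14), each running from 250 bases before to 50 after a transcript start. All 10 genes matched, with 14 windows, since PER3, CRY2, NR1D2 and TEF have several starts. The motifs searched, on both strands, were 5: the E-box CACGTG, the E′-box CACGTT, the D-box TTATGTAA, the cAMP response element TGACGTCA, and the ROR element, an AGGTCA or GGGTCA directly after AANT. No matches overlapped in these windows. The stretches around every match are shown because E-boxes and D-boxes are the kind of site through which clock genes are known to act on one another. Capitals mark the motif as read on the gene's own strand, so that an E′-box on the other strand reads AACGTG and a D-box TTACATAA.
PER1 (chr17:8152545-8152604, minus strand, E-box): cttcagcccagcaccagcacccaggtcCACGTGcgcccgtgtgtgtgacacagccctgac
PER2 (chr2:238288775-238288834, minus strand, E′-box): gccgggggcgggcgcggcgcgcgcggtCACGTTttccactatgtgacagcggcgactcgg
PER3 (chr1:7784087-7784148, plus strand, D-box): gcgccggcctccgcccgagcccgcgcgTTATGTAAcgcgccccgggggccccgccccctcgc
CRY1 (chr12:107093621-107093650, minus strand, E′-box): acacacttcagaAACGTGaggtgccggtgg
CRY2 (chr11:45847275-45847304, plus strand, E′-box): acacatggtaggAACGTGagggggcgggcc
NR1D1 (chr17:40100740-40100769, minus strand, E′-box): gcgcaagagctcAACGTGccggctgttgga
NR1D2 (chr3:23945900-23946048, plus strand, D-box and 2 E-boxes): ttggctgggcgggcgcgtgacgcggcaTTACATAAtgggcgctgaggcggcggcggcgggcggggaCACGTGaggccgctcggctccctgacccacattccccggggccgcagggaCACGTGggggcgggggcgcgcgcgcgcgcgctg
TEF, start 1 (chr22:41367233-41367292, plus strand, E-box): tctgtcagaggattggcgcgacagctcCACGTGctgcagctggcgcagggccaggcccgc
TEF, start 2 (chr22:41381722-41381781, plus strand, E-box): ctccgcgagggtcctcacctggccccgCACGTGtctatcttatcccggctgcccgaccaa
BHLHE40 (chr3:4979187-4979209, plus strand, E-box): tccaaCACGTGagactcatgtga

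An E-box or E′-box stood in 9 of the 14 windows and in 8 of the 10 genes, against 12.2% of the 35116 windows of all genes. Taken singly, the E-box was in 7.26% of all windows and the E′-box in 5.34%. The D-box, found in PER3 and NR1D2, was in 0.886% of all windows. No cAMP response element (1.85% of all windows) and no ROR element (0.379%) was matched in a window of the 10 genes, and DBP matched none of the 5 motifs, which says only that these letters are not in these windows. Outside the 10 genes, BMAL1 held a ROR element 27 bases after its start and CLOCK one 217 bases before its start. The stretches shown for CRY1, CRY2 and BHLHE40 touch an annotated exon in GENCODE 29, not necessarily of the same gene.

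**Figure D1:**
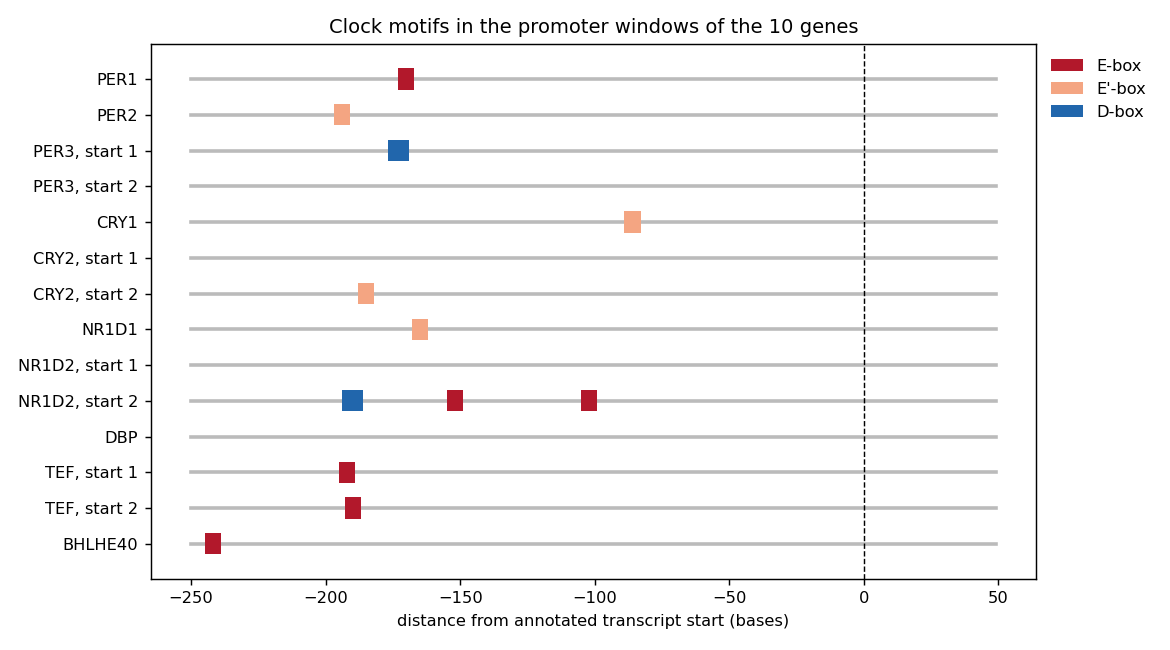
Motif matches in the 14 promoter windows of the 10 clock genes, by distance in bases from the annotated transcript start (dashed line); rows are genes, with starts numbered where there are several, and coloured blocks are the motifs named in the legend. E-boxes and E′-boxes appear in 8 of the 10 genes, D-boxes in PER3 and NR1D2, and no match in DBP.

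ACSL5 itself averaged 15.3 ± 2.19 CPM in shACSL5_PA cells and 11.2 ± 1.16 CPM in shACSL5 cells, against 191 ± 2.73 CPM in shControl_PA cells and 143 ± 1.69 CPM in shControl cells (CPM are counts scaled to library size with TMM factors; SD, n = 3 each). Library totals ran from 16788694 to 21814751 counts, and replicates of a group differed by more than counting noise, with chi-square per degree of freedom from 2.23 to 4.37. VIM, CD44, AXL and MSN, high in this line, were expressed in every library. Their sum ran from 4962 to 5229 CPM in shACSL5_PA and 4913 to 5116 CPM in shACSL5 libraries. In shControl_PA libraries it ran from 6117 to 6315 CPM, and in shControl libraries from 6616 to 6852.5 CPM. The sum was thus lower in both knockdown groups than in both control groups, with no overlap. Of the genes listed as low in this line, the hormone receptor genes ESR1 and PGR reached at most 0.439 CPM and 0.0549 CPM. ERBB2 and GATA3, also listed as low, ran from 54.5 to 83.0 CPM and from 4.89 to 9.44 CPM. Of the immune markers, CD3E was at 0, PTPRC reached at most 0.369 CPM and CD14 at most 0.651 CPM, while CD68 ran from 34.8 to 53.6 CPM. Their sum ran from 45.2 to 54.0 CPM in shACSL5_PA, 47.7 to 53.2 CPM in shACSL5, 35.7 to 37.0 CPM in shControl_PA and 34.8 to 37.8 CPM in shControl libraries. Of the lung epithelial ones, SFTPC and SCGB1A1 were at 0 and SFTPB reached at most 0.169 CPM, while NKX2-1 ran from 25.7 to 44.7 CPM. Their sum ran from 25.7 to 28.0 CPM in shACSL5_PA, 36.2 to 37.6 CPM in shACSL5, 36.2 to 40.9 CPM in shControl_PA and 42.7 to 44.8 CPM in shControl libraries. Of the fibroblast markers, DCN and LUM reached at most 0.0545 CPM and 0.114 CPM. COL1A1 ran from 7.90 to 15.4 CPM and PDGFRB from 3.99 to 14.6 CPM. The summed fibroblast markers, which COL1A1 and PDGFRB make up, ran from 18.3 to 19.0 CPM in shACSL5_PA, 25.6 to 29.9 CPM in shACSL5, 13.2 to 14.7 CPM in shControl_PA and 20.6 to 22.6 CPM in shControl libraries, while the summed endothelial markers (CDH5, KDR and VWF) ran from 1.26 to 1.83 CPM in shACSL5_PA, 1.56 to 1.79 CPM in shACSL5, 2.07 to 2.75 CPM in shControl_PA and 3.58 to 5.87 CPM in shControl libraries. The part of these markers in the changes of the clock genes was not tested.

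Per length, BHLHE40, NR1D2 and CRY1 were the most abundant of the 10 genes in shControl cells and DBP the least. In shControl cells the level per kilobase of merged exons (CPM per kb, exon lengths from GENCODE 29) was 25.9 for BHLHE40, 14.8 for NR1D2, 14.0 for CRY1, 5.21 for NR1D1, 2.17 for TEF, 1.98 for PER1, 1.49 for CRY2, 0.515 for PER2, 0.345 for PER3 and 0.256 for DBP. Of neighbours in that order, TEF and PER1, and PER3 and DBP, had ranges of mean ± SD that overlapped. In shACSL5 cells the order began with CRY1 at 17.6 and NR1D2 at 16.2 CPM per kb, which overlapped, then NR1D1 at 7.72, and BHLHE40 followed at 5.50. With palmitic acid, BHLHE40 was at 9.63 CPM per kb in shACSL5_PA cells, below CRY1 and NR1D2, and at 20.5 CPM per kb in shControl_PA cells, above all the other clock genes. The annotated exons of DBP cover 6544 of the 7409 bases of its span, which lowers its level per kilobase, and the gene rested on 11 to 35 counts per library.

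**Figure D2:**
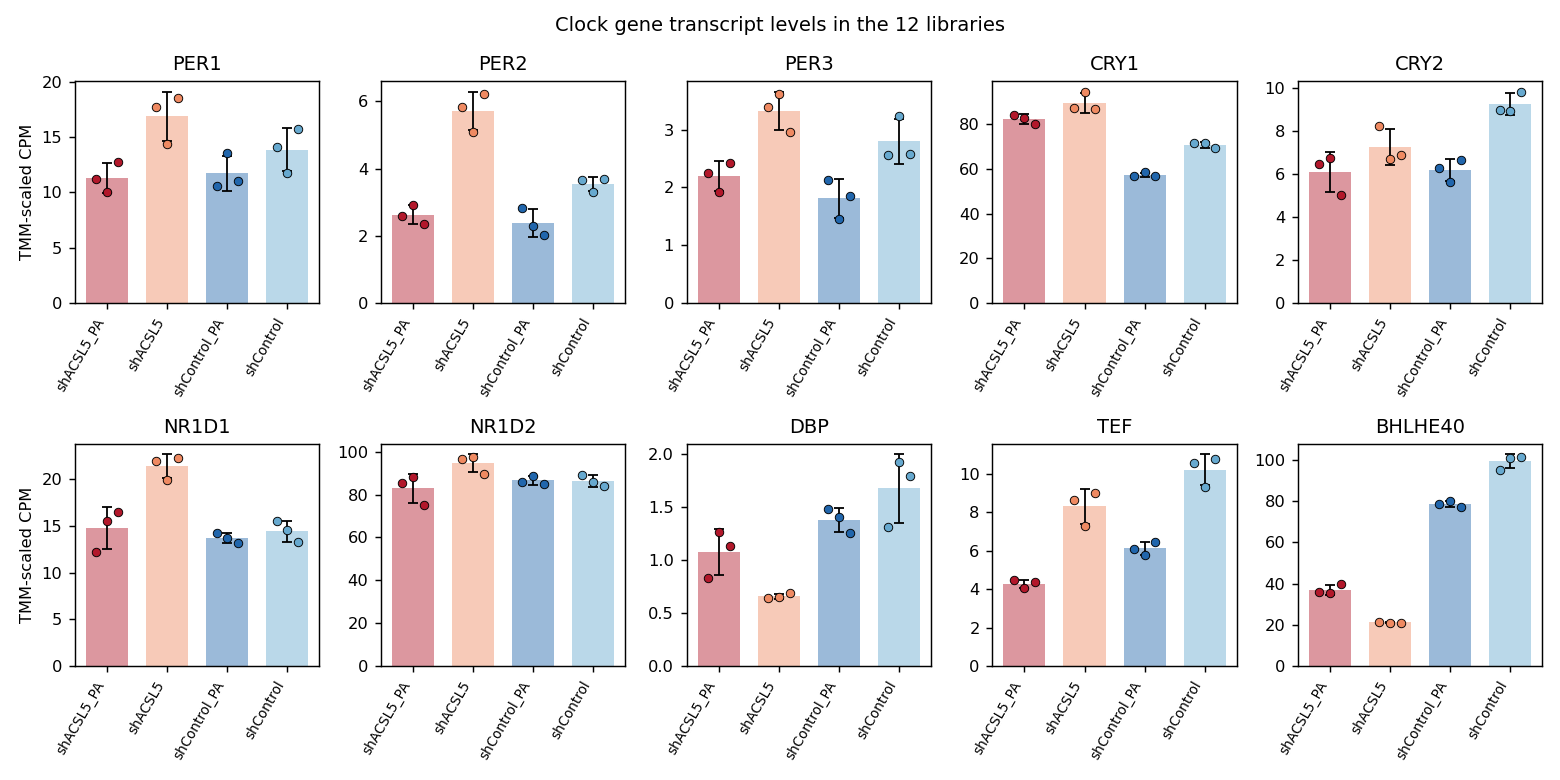
Transcript levels of the 10 clock genes in TMM-scaled CPM; each panel is a gene with its own linear axis from 0, points are the 3 libraries of a group, bars the group mean and whiskers its SD. The libraries of BHLHE40, TEF and CRY1 each fall into 4 separate levels. The 3 shACSL5 libraries of PER2, NR1D1, CRY1 and NR1D2 sit above all the others, those of NR1D2 by little (89.7 CPM against 89.0 CPM in shControl replicate 1).

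Changes below are log2 ratios with their standard error (SE) from edgeR's quasi-likelihood test over all 12 libraries, and a gene is called at an adjusted p (Benjamini-Hochberg, over all 14706 genes) under 0.05. The comparisons are not independent: those of the knockdown without palmitate and of palmitate in control cells share the shControl libraries, and those of the knockdown without palmitate and of palmitate in knockdown cells share the shACSL5 libraries. The comparison of the knockdown under palmitate shares the shACSL5_PA libraries with that of palmitate in knockdown cells, and the shControl_PA libraries with that of palmitate in control cells.

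Without palmitate, 9 of the 10 genes differed between shACSL5 and shControl cells, 5 higher (PER1, PER2, CRY1, NR1D1 and NR1D2) and 4 lower (CRY2, DBP, TEF and BHLHE40). The background of this comparison is wide: 62.3% of all genes tested were called, 29.7% higher and 32.6% lower. The median change of the 10 genes was 0.19, against -0.02 over all genes tested. In 8 of the 10 genes the libraries of the groups did not overlap, against 66.1% of all genes. Under palmitate, 3 of the 10 were called between shACSL5_PA and shControl_PA cells, CRY1 higher and TEF and BHLHE40 lower, where 50.5% of all genes were called (24.4% higher and 26.1% lower), and the median of the 10 was -0.03, against -0.00 over all genes. In that comparison 3 of the 10 genes did not overlap, against 56.9% of all genes. CRY1 was thus higher, and TEF and BHLHE40 lower, in the knockdown both with and without palmitate.

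With palmitate, 6 of the 10 genes differed between shACSL5_PA and shACSL5 cells, 5 lower (PER1, PER2, NR1D1, NR1D2 and TEF) and BHLHE40 higher, and 5 differed between shControl_PA and shControl cells, all of them lower (PER2, CRY1, CRY2, TEF and BHLHE40). Of all genes tested, 21.9% were called in knockdown cells, 12.1% higher and 9.78% lower, and 28.7% in control cells, 15.1% higher and 13.5% lower. With library sizes in place of TMM factors, 35.9% of the genes called in control cells were higher, against 52.8% with TMM. The median change of the 10 genes was -0.40 in knockdown cells, against 0.01 over all genes, and -0.32 in control cells, against -0.00 over all genes. Libraries did not overlap in 9 of the 10 genes in knockdown cells, against 35.5% of all genes, and in 6 of the 10 in control cells, against 41.9%. PER2 and TEF were lower in both palmitate comparisons, which share no library.

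**Figure D3:**
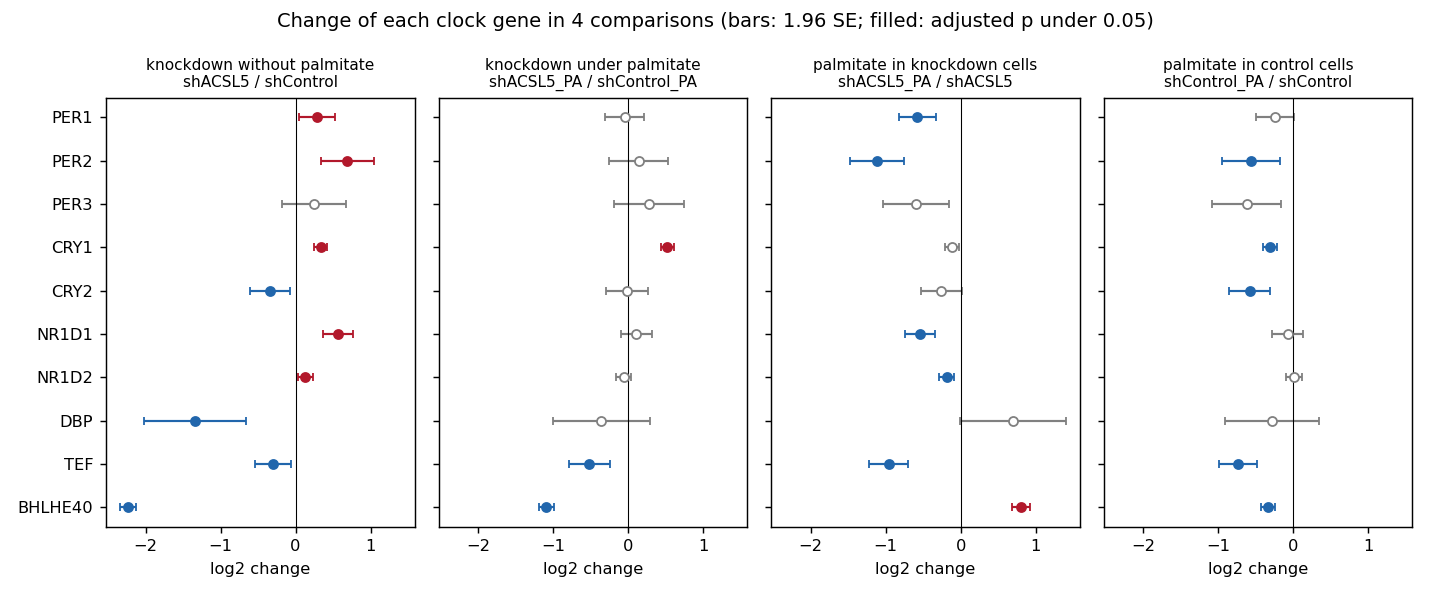
Log2 change of each of the 10 clock genes in the 4 comparisons, with the group named first over its counterpart; points are estimates and bars 95% intervals, and filled points are called at an adjusted p under 0.05. BHLHE40 lies at -2.23 for the knockdown without palmitate and at 0.81 for palmitate in knockdown cells, and the palmitate panels hold no called rise other than that.

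BHLHE40, the E-box repressor, had the largest change of the 10 with the knockdown, with and without palmitate, and was called in all 4 comparisons, as TEF was. Its level was 35.9, 35.3 and 39.7 CPM in the shACSL5_PA libraries, 21.6, 20.8 and 20.9 CPM in the shACSL5 libraries, 78.7, 80.0 and 77.3 CPM in the shControl_PA libraries, and 95.3, 101 and 102 CPM in the shControl libraries. The 4 groups do not overlap anywhere. The gene fell by 2.23 (SE 0.06, adjusted p = 5.69e-19) with the knockdown without palmitate, a change of -78.7%, and by 1.09 (SE 0.05, adjusted p = 1.17e-13) with the knockdown under palmitate. Palmitate moved it in opposite directions: it was higher by 0.81 (SE 0.06, adjusted p = 2.37e-09) in shACSL5_PA than in shACSL5 cells, and lower (log2 change -0.34, SE 0.05, adjusted p = 1.61e-05) in shControl_PA than in shControl cells. The interaction (the response to palmitate in shACSL5 cells less the one in shControl cells) was 1.14 (SE 0.08, 95% interval 0.99 to 1.29, adjusted p = 1.76e-09). All 19 alternative fits of the interaction and all 20 of each other comparison of BHLHE40 kept its direction and its call.

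The 3 PER genes encode the period proteins, the negative limb of the loop. PER2 was at 2.60, 2.93 and 2.36 CPM in shACSL5_PA, 5.82, 5.09 and 6.22 CPM in shACSL5, 2.84, 2.30 and 2.02 CPM in shControl_PA, and 3.65, 3.29 and 3.68 CPM in shControl libraries. The shACSL5 libraries were above all the others, and the 2 palmitate groups overlapped. PER2 rose by 0.69 (SE 0.18, adjusted p = 0.00194) with the knockdown without palmitate. It fell by 1.12 (SE 0.18, adjusted p = 0.000123) with palmitate in knockdown cells and by 0.57 (SE 0.20, adjusted p = 0.0334) in control cells, and the interaction of -0.55 (SE 0.27, adjusted p = 0.192) was not called. The call in control cells rests on few counts, 37 to 127 per library over all groups. It was lost without a filter on low counts (adjusted p = 0.0738), with DESeq2 (0.0636), in a fit of those 2 groups alone (0.0633), and without shControl replicate 1 (0.0780) or 3 (0.0850) or shControl_PA replicate 2 (0.0869) or 3 (0.133). Under palmitate, the knockdown gave 0.14 (SE 0.20, 95% interval -0.25 to 0.54, adjusted p = 0.591).

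PER1, which also answers fast to glucocorticoid and cAMP signals, was at 11.2, 10.1 and 12.7 CPM in shACSL5_PA, 17.7, 14.4 and 18.6 CPM in shACSL5, 10.5, 13.5 and 11.1 CPM in shControl_PA, and 14.1, 11.8 and 15.7 CPM in shControl libraries. With palmitate in knockdown cells the libraries did not overlap and PER1 fell by 0.58 (SE 0.13, adjusted p = 0.00174). In control cells it changed by -0.24 (SE 0.13, adjusted p = 0.166), which was not called, and the interaction was -0.34 (SE 0.18, adjusted p = 0.236). The rise with the knockdown without palmitate, 0.29 (SE 0.12, adjusted p = 0.0477), stands at the edge of the threshold and its groups overlapped. It was lost with library sizes alone (adjusted p = 0.0701) and without any 1 of 7 libraries: shControl replicate 1 (0.0804) or 2 (0.244), shControl_PA replicate 1 (0.0501) or 3 (0.0504), shACSL5 replicate 1 (0.138) or 3 (0.187), or shACSL5_PA replicate 1 (0.0518).

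PER3 passed the threshold in no comparison. Its libraries read 2.25, 1.92 and 2.42 CPM in shACSL5_PA, 3.39, 3.61 and 2.95 CPM in shACSL5, 2.13, 1.46 and 1.85 CPM in shControl_PA, and 2.56, 3.24 and 2.58 CPM in shControl. With palmitate the libraries did not overlap in either cell type, and the changes were -0.59 (SE 0.22, adjusted p = 0.0614) in knockdown cells and -0.62 (SE 0.23, adjusted p = 0.0518) in control cells. The change in control cells was called with library sizes alone (adjusted p = 0.0358), with a filter at a mean CPM of 1 (0.0470) and without shControl_PA replicate 1 (0.0455). Of the merged exons of PER3, 16.7% lie over exons of UTS2 and an antisense RNA on the other strand. The strand setting of the counting is not given, so reads of that stretch cannot be assigned to a gene. UTS2 was not among the genes that passed the filter on low counts.

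The cryptochromes CRY1 and CRY2, the partners of the PER proteins in repression, moved apart with the knockdown without palmitate. CRY1 was at 84.1, 82.7 and 79.9 CPM in shACSL5_PA, 87.0, 94.3 and 86.7 CPM in shACSL5, 56.7, 58.3 and 56.6 CPM in shControl_PA, and 71.4, 71.6 and 69.1 CPM in shControl libraries. Both knockdown groups lay above both control groups, with no overlap. CRY1 rose by 0.34 (SE 0.05, adjusted p = 1.02e-06) with the knockdown without palmitate and by 0.52 (SE 0.05, adjusted p = 3.46e-09) under palmitate. It fell by 0.31 (SE 0.05, adjusted p = 4.1e-05) with palmitate in control cells. In knockdown cells it changed by -0.12 (SE 0.04, adjusted p = 0.0638), just short of a call. That change was called with library sizes alone (adjusted p = 0.0317) and with a replicate block (0.0498). The interaction was 0.19 (SE 0.07, adjusted p = 0.0579), also short of a call. It was called with library sizes alone (adjusted p = 0.0318), with a filter at a mean CPM of 1 (0.0489) and with a replicate block (0.0459). It was also called without shACSL5 replicate 2 (0.0219) or shACSL5_PA replicate 3 (0.0467).

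CRY2 was at 6.47, 6.77 and 5.05 CPM in shACSL5_PA, 8.24, 6.69 and 6.91 CPM in shACSL5, 6.28, 5.62 and 6.65 CPM in shControl_PA, and 9.00, 8.95 and 9.84 CPM in shControl libraries. The shControl libraries were above all 9 others. CRY2 fell by 0.58 (SE 0.14, adjusted p = 0.00266) with palmitate in control cells and by 0.34 (SE 0.13, adjusted p = 0.0314) with the knockdown without palmitate, both measured against those same shControl libraries. Palmitate in knockdown cells gave -0.26 (SE 0.14, adjusted p = 0.201), and the interaction of 0.32 (SE 0.20, adjusted p = 0.302) was not called. Under palmitate the knockdown gave -0.02 (SE 0.14, 95% interval -0.30 to 0.26, adjusted p = 0.927). The knockdown call was lost without a filter on low counts (adjusted p = 0.0599), with DESeq2 (0.0692), and without shControl replicate 3 (0.105) or shACSL5 replicate 2 (0.105) or 3 (0.0956).

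The REV-ERB genes NR1D1 and NR1D2, repressors of BMAL1, had their highest mean in shACSL5 cells, like the PER genes and CRY1. NR1D1 was at 12.2, 15.6 and 16.5 CPM in shACSL5_PA, 21.9, 20.0 and 22.3 CPM in shACSL5, 14.2, 13.7 and 13.1 CPM in shControl_PA, and 15.5, 14.5 and 13.3 CPM in shControl libraries. The shACSL5 libraries stood above the rest, and the other 3 groups overlapped one another. NR1D1 rose by 0.57 (SE 0.10, adjusted p = 3.82e-05) with the knockdown without palmitate and fell by 0.54 (SE 0.10, adjusted p = 0.000445) with palmitate in knockdown cells. In control cells palmitate gave -0.08 (SE 0.11, 95% interval -0.29 to 0.13, adjusted p = 0.638). The interaction was -0.46 (SE 0.15, adjusted p = 0.0364), so the palmitate response differed between the cell types, but this call was lost without any 1 of 7 libraries: shControl replicate 2 (adjusted p = 0.0618) or 3 (0.0912), shControl_PA replicate 1 (0.0882) or 2 (0.0673), shACSL5 replicate 1 (0.0780) or 3 (0.0784), or shACSL5_PA replicate 1 (0.104). The gene shares 9.49% of its merged exons with THRA on the other strand. THRA changed by -0.28 (SE 0.07, adjusted p = 0.00193) with the knockdown without palmitate, against the direction of NR1D1. With palmitate THRA moved in the direction of NR1D1, by -0.21 (SE 0.07, adjusted p = 0.0327) in control cells and -0.12 (SE 0.07, adjusted p = 0.252) in knockdown cells. The part of the overlap in the NR1D1 counts was not tested.

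NR1D2 was at 85.4, 88.0 and 75.1 CPM in shACSL5_PA, 96.6, 97.4 and 89.7 CPM in shACSL5, 85.9, 88.8 and 85.0 CPM in shControl_PA, and 89.0, 86.0 and 83.8 CPM in shControl libraries. Its changes were the smallest among the called ones. It rose by 0.13 (SE 0.05, adjusted p = 0.0331) with the knockdown without palmitate and fell by 0.19 (SE 0.05, adjusted p = 0.0116) with palmitate in knockdown cells, while palmitate in control cells gave 0.00 (SE 0.05, 95% interval -0.10 to 0.11, adjusted p = 0.962). The rise was lost with library sizes alone (adjusted p = 0.0872) and without shControl replicate 2 (0.0756) or 3 (0.119) or shACSL5 replicate 1 (0.108) or 2 (0.110), and the fall without shACSL5 replicate 1 (0.0559) or 2 (0.0508) or shACSL5_PA replicate 3 (0.0835). The interaction was -0.19 (SE 0.07, adjusted p = 0.0862) and was called without shACSL5_PA replicate 2 (0.0455) and with a replicate block (0.0380).

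The PAR bZIP genes TEF and DBP, clock outputs that drive genes with D-boxes, were both lower with the knockdown without palmitate. TEF was at 4.46, 4.04 and 4.35 CPM in shACSL5_PA, 8.66, 7.28 and 9.02 CPM in shACSL5, 6.12, 5.79 and 6.49 CPM in shControl_PA, and 10.6, 9.33 and 10.8 CPM in shControl libraries. The 4 groups did not overlap. TEF fell by 0.96 (SE 0.13, adjusted p = 1.74e-05) with palmitate in knockdown cells and by 0.74 (SE 0.13, adjusted p = 0.000125) in control cells, changes of -48.6% and -40.1%, and the interaction was -0.22 (SE 0.18, 95% interval -0.58 to 0.14, adjusted p = 0.475). It fell by 0.52 (SE 0.14, adjusted p = 0.00327) with the knockdown under palmitate and by 0.30 (SE 0.12, adjusted p = 0.0406) without it. The call without palmitate was lost with DESeq2's size factors (adjusted p = 0.0552), no filter on low counts (0.109), DESeq2 (0.104), a fit of those 2 groups alone (0.0624), and without shControl replicate 1 (0.103) or 3 (0.126) or shACSL5 replicate 1 (0.0589) or 2 (0.169).

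DBP was at 0.833, 1.26 and 1.13 CPM in shACSL5_PA, 0.641, 0.651 and 0.686 CPM in shACSL5, 1.48, 1.41 and 1.25 CPM in shControl_PA, and 1.31, 1.92 and 1.79 CPM in shControl libraries. The shACSL5 libraries were below all the others. DBP fell by 1.34 (SE 0.35, adjusted p = 0.00186) with the knockdown without palmitate, a call that every alternative kept. Under palmitate the knockdown gave -0.36 (SE 0.33, 95% interval -1.01 to 0.29, adjusted p = 0.393), and the libraries overlapped. Palmitate in knockdown cells gave 0.70 (SE 0.36, adjusted p = 0.178), with the shACSL5_PA libraries all above the shACSL5 ones, and palmitate in control cells gave -0.28 (SE 0.32, adjusted p = 0.559). The interaction of 0.98 had a wide interval (95% interval 0.04 to 1.92, adjusted p = 0.191). SPHK2 covers 10.1% of the merged exons of DBP from the other strand. It changed by 1.05 (SE 0.10, adjusted p = 2.54e-09) with the knockdown without palmitate. SPHK2 changed by 0.52 (SE 0.10, adjusted p = 9.1e-05) with the knockdown under palmitate. For SPHK2 palmitate gave 0.31 (SE 0.10, adjusted p = 0.0279) in control cells and -0.22 (SE 0.09, adjusted p = 0.0819) in knockdown cells. Its interaction was -0.53 (SE 0.14, adjusted p = 0.0107). Each of these estimates has the opposite sign to that of DBP. The part of the overlap in the DBP counts was not tested.

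**Figure D4:**
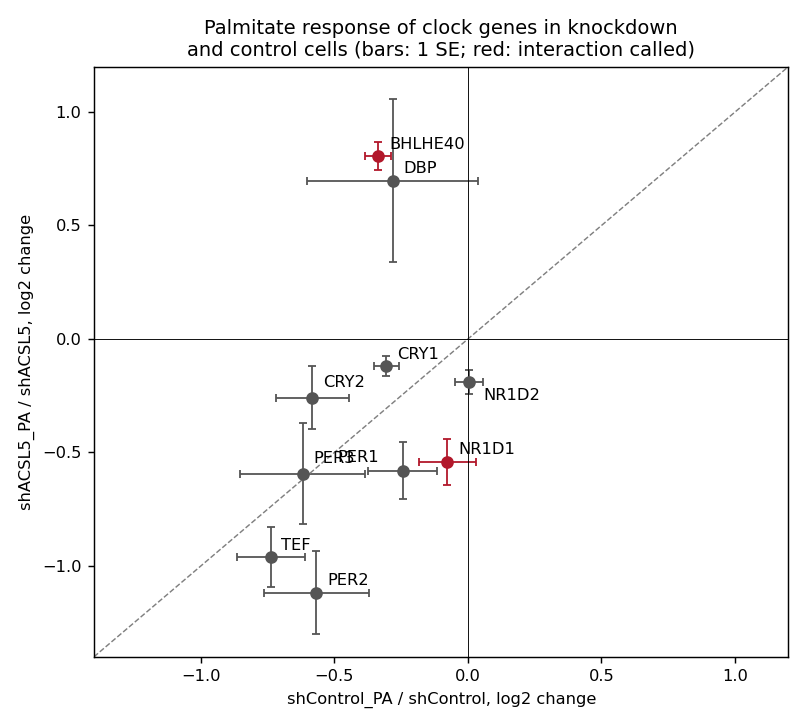
Palmitate response of the 10 clock genes in knockdown cells (vertical axis, shACSL5_PA over shACSL5) and in control cells (horizontal axis, shControl_PA over shControl), as log2 changes with bars of 1 SE; red points are genes with a called interaction. BHLHE40 (0.81 and -0.34) and NR1D1 (-0.54 and -0.08) are the 2 red points.

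The interaction was called for 2 of the 10 genes, BHLHE40 higher and NR1D1 lower, against 14.5% of all genes tested, 7.15% higher and 7.39% lower. With library sizes alone, 59.9% of all genes called for the interaction were higher, against 49.2% with TMM. The uncalled estimates were positive for CRY1, CRY2 and DBP, negative for PER1, PER2, NR1D2 and TEF, and 0.03 (SE 0.32) for PER3, whose sign changed when single libraries were left out.

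The activators that drive the loop were lower with the knockdown. Of 7 listed activators and RORs, 6 passed the filter on low counts and were tested, and all 6 were called lower with the knockdown both without palmitate, where 32.6% of all genes were called lower, and under palmitate, where 26.1% were. CLOCK fell by 0.39 (SE 0.07, adjusted p = 7.97e-05), with 71.1, 65.5 and 53.6 CPM in shACSL5 and 89.9, 79.8 and 79.5 CPM in shControl libraries. BMAL1 fell by 0.73 (SE 0.12, adjusted p = 8.52e-06), with 7.97, 9.12 and 7.54 CPM in shACSL5 and 13.7, 14.1 and 12.9 CPM in shControl libraries. RORB fell by 2.84 (SE 0.25, adjusted p = 1.37e-09), with 0.641, 0.829 and 0.791 CPM in shACSL5 and 6.38, 4.72 and 5.16 CPM in shControl libraries. The shACSL5 levels of RORB rest on 14, 14 and 15 counts. None of these 3 genes had overlapping groups in that comparison. NPAS2, the relative of CLOCK, fell by 0.16 (SE 0.05), BMAL2, the relative of BMAL1, by 0.74 (SE 0.07), and RORA, which rests on 13 to 61 counts per library, by 1.59 (SE 0.33). Under palmitate the changes were -0.24 for CLOCK, -0.30 for BMAL1, -0.14 for NPAS2, -0.76 for BMAL2, -0.98 for RORA and -1.78 for RORB.

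Of these activators, CLOCK and NPAS2 were called with palmitate. CLOCK rose by 0.26 (SE 0.07, adjusted p = 0.0128) in knockdown cells, and NPAS2 rose by 0.29 (SE 0.05, adjusted p = 0.000255) in knockdown cells and by 0.27 (SE 0.05, adjusted p = 0.000311) in control cells. No activator or ROR was called lower with palmitate, and none had a called interaction. RORB came nearest, with 1.06 (SE 0.36, adjusted p = 0.0519), and BMAL1 had 0.43 (SE 0.16, adjusted p = 0.0797).

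Among 6 genes listed as other repressors and D-box factors, which include TIMELESS and TIPIN, 4 were tested. HLF and CIART, with at most 7 and 3 counts in a library, were not. With the knockdown without palmitate 3 were called higher, BHLHE41, TIMELESS and TIPIN, as 29.7% of all genes were. BHLHE41 (DEC2), the close relative of BHLHE40, went the other way from it. It was at 3.33, 3.39 and 3.98 CPM in shACSL5_PA, 3.48, 2.31 and 2.90 CPM in shACSL5, 0.874, 0.506 and 1.31 CPM in shControl_PA, and 0.456, 0.823 and 0.526 CPM in shControl libraries. Its control levels rest on few counts: 16, 9 and 24 in shControl_PA and 8, 15 and 10 in shControl libraries. Both knockdown groups stood above both control groups, and BHLHE41 rose by 2.26 (SE 0.33, adjusted p = 3.15e-06) with the knockdown without palmitate and by 1.98 (SE 0.31, adjusted p = 1.17e-05) under palmitate. TIMELESS and TIPIN, which form a replication fork complex linked to the clock, rose by 0.25 (SE 0.05, adjusted p = 0.00012) and 0.47 (SE 0.09, adjusted p = 7.69e-05) with the knockdown without palmitate. TIMELESS fell by 0.17 with palmitate in knockdown cells, and its interaction was -0.24 (SE 0.07, adjusted p = 0.0199). TIPIN rose by 0.40 (SE 0.09, adjusted p = 0.00193) with palmitate in control cells. NFIL3, the D-box repressor, was called in no comparison, with 23.3 ± 1.31 CPM in shACSL5_PA, 20.7 ± 1.27 CPM in shACSL5, 26.5 ± 1.99 CPM in shControl_PA and 23.0 ± 1.37 CPM in shControl cells.

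**Figure D5:**
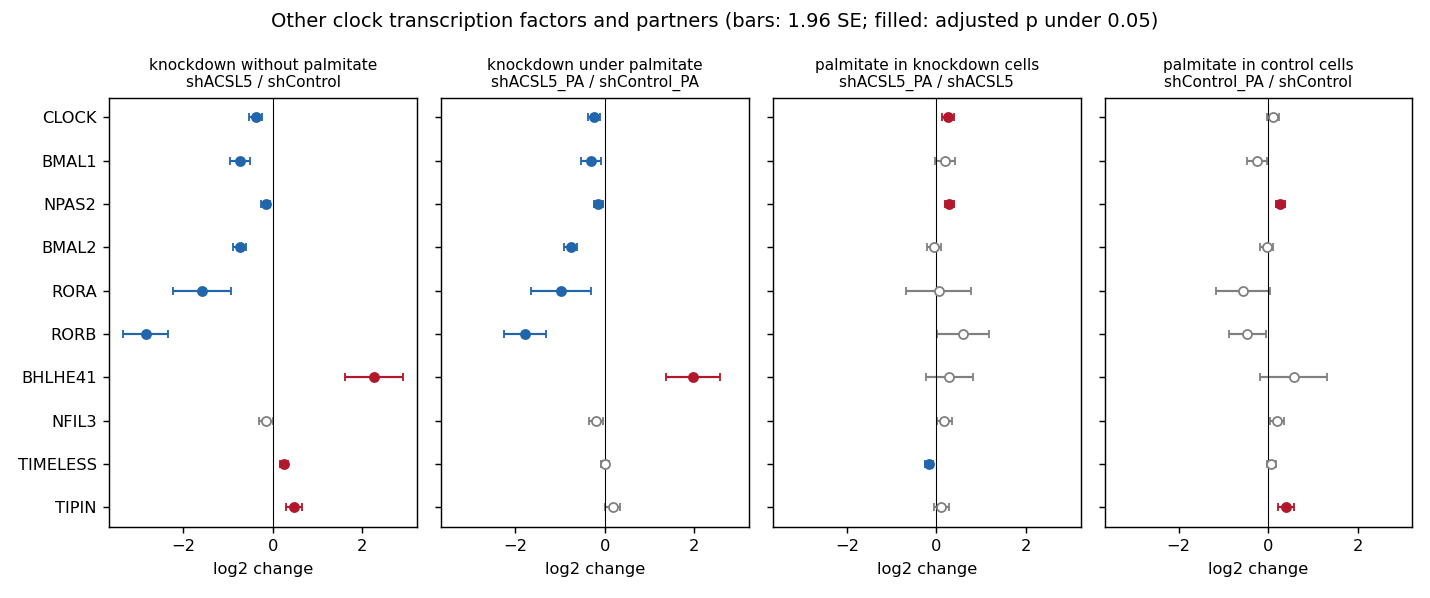
Log2 change of other clock pathway genes in the 4 comparisons, with the group named first over its counterpart. The genes are the activators, the RORs and the list of other repressors and D-box factors, which also holds TIMELESS and TIPIN. Points are estimates, bars 95% intervals, and filled points are called at an adjusted p under 0.05. All 6 activators and RORs lie below 0 and are filled in both knockdown panels, and without palmitate RORB lies at -2.84 and BHLHE41 at 2.26.

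Of 17 kinases, ubiquitin ligases and deubiquitinases that act on clock proteins, 16 were tested, and 5 were higher and 9 lower with the knockdown without palmitate, where 62.3% of all genes were called. CSNK1A1, a casein kinase 1, was at 221, 227 and 222 CPM in shACSL5 and 398, 402 and 376 CPM in shControl libraries, a fall by 0.81 (SE 0.03, adjusted p = 2.41e-15). Its merged exons lie to 37.4% over another annotated transcript on the same strand. CSNK2A2, a casein kinase 2 subunit, fell by 0.52 (SE 0.05), and GSK3A rose by 0.52 (SE 0.05). Under palmitate the list held 5 higher and 6 lower, with CSNK1A1 at -0.69 (SE 0.03), GSK3A at 0.44 (SE 0.05) and CSNK2A2 at -0.31 (SE 0.04) as the calls of smallest p, where 50.5% of all genes were called. With palmitate it held 4 higher and 2 lower in knockdown cells, against 21.9% of all genes called, and 3 higher and 2 lower in control cells, against 28.7%. CSNK1A1 rose by 0.13 (SE 0.03) and FBXW11, a ligase for the PER proteins, fell by 0.12 (SE 0.03) in knockdown cells, and CSNK2A1 rose by 0.15 (SE 0.03) in control cells. SIAH2, a ligase for NR1D1, fell by 0.33 (SE 0.06, adjusted p = 0.000375) in knockdown cells and by 0.24 (SE 0.06, adjusted p = 0.00708) in control cells.

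Of 26 cofactors, outputs and input genes, all tested, 6 were higher and 12 lower with the knockdown without palmitate, where 62.3% of all genes were called, and 5 higher and 11 lower under palmitate, where 50.5% were. Of all genes, 29.7% were called higher and 32.6% lower without palmitate, and 24.4% higher and 26.1% lower under it. HIF1A, a bHLH-PAS factor that can act on BHLHE40, was at 347, 337 and 332 CPM in shACSL5 and 575, 544 and 551 CPM in shControl libraries, a fall by 0.72 (SE 0.03, adjusted p = 5.92e-15). CDKN1A, the cell cycle inhibitor p21, was at 24.5, 20.0 and 22.9 CPM in shACSL5 and 64.0, 62.3 and 61.8 CPM in shControl libraries, a fall by 1.47 (SE 0.07, adjusted p = 8.62e-15), and CREBBP, a coactivator, rose by 0.74 (SE 0.04, adjusted p = 4.65e-13). Under palmitate HIF1A fell by 0.58 (SE 0.03) and CDKN1A by 0.91 (SE 0.06), and CREBBP rose by 0.49 (SE 0.04). With palmitate the list held 7 higher and 6 lower in knockdown cells, against 21.9% of all genes called, and 7 higher and 7 lower in control cells, against 28.7%. In control cells NAMPT, the clock-driven enzyme of NAD salvage, rose by 0.58 (SE 0.04, adjusted p = 8.38e-11), with 419, 429 and 422 CPM in shControl_PA and 292, 279 and 279 CPM in shControl libraries. SGK1, a glucocorticoid-induced kinase, rose by 0.61 (SE 0.06, adjusted p = 6.29e-08) and NONO, a PER-binding protein, by 0.29 (SE 0.03, adjusted p = 1.4e-08) in control cells. In knockdown cells CDKN1A rose by 0.82 (SE 0.07, adjusted p = 9.43e-09), KLF10 by 0.59 (SE 0.05, adjusted p = 1.36e-08), and WEE1, a clock-controlled cell cycle kinase, fell by 0.80 (SE 0.08, adjusted p = 4.67e-07).

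Over the 4 lists together, 52 of 56 genes were tested. With the knockdown 14 were called higher and 27 lower without palmitate (62.3% of all genes called), and 11 higher and 23 lower under palmitate (50.5%). With palmitate 13 were higher and 9 lower in knockdown cells (21.9% of all genes), and 12 higher and 9 lower in control cells (28.7%). The interaction was called for 14, of which 6 were higher and 8 lower (14.5% of all genes). The median change of the 52 was -0.14 for the knockdown without palmitate, against -0.02 over all genes, and -0.09 under palmitate, against -0.00. For palmitate it was 0.02 in knockdown cells, against 0.01 over all genes, and -0.02 in control cells, against -0.00.

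The genes nearest to each called clock gene over the 12 libraries were sought. Likeness was measured as the root mean square difference of log2 levels, each gene centred on its own mean, among 10931 genes with a mean of at least 5 CPM. ITGA3, an integrin subunit, lay nearest to BHLHE40, at 0.0922, where BHLHE40 itself varied by 0.885 about its mean. ITGA3 averaged 287 CPM in shACSL5_PA, 183 CPM in shACSL5, 606 CPM in shControl_PA and 725 CPM in shControl cells. RGS17 came next at 0.145. AP3M2 lay nearest to CRY1, at 0.0392, and MDM2 next at 0.0512, where CRY1 varied by 0.246. For TEF, which varied by 0.474, the nearest were MIR23AHG at 0.160 and MYLIP at 0.164, and for NR1D1, which varied by 0.279, PRDM11 at 0.0935 and ZNF219 at 0.108. For DBP, which varied by 0.481, EPAS1 lay nearest at 0.163 and DOP1B next at 0.164. The nearest to PER2 was ZNF526 at 0.187, with KRT80 next at 0.211, where PER2 varied by 0.496. For PER1, CRY2 and NR1D2 the nearest genes, CCDC106, SCYL3 and TNPO1, lay at 0.133, 0.123 and 0.0419, where the clock genes varied by 0.275, 0.273 and 0.0927. Second to these came ZBTB39 at 0.133 for PER1, HECW1 at 0.130 for CRY2 and PHACTR2 at 0.0460 for NR1D2. PER3, called in no comparison, was not compared in this way. The genes named are those of smallest distance among the 10931 candidates. No reference distance was worked out, so whether these matches are closer than such a selection alone gives was not tested.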

How the data were processed

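The authors deposited whole-number read counts per gene, not normalized, for 12 polyA RNA libraries; the submitters' processing notes name HISAT2 2.1.0, fastp 0.22.0, featureCounts without a version, and the build GRCh38. The gene annotation used for counting and its strand setting were not given in the sources used here. From these counts, edgeR 4.0.16 in R 4.3.3 kept genes with filterByExpr, scaled with TMM factors (0.986 to 1.03) and fitted 1 negative binomial model to the 4 groups (quasi-likelihood test, common dispersion 0.00203, Benjamini-Hochberg adjustment). Of the table's identifiers, 51928 matched a current symbol. The SE is the coefficient divided by the root of its F statistic, and intervals are built from it. Library totals ran from 16788694 to 21814751. Alternatives used DESeq2 1.42.0 and limma 3.58.1 (voom), other scalings and filters, a replicate block, a fit of 2 groups and each library left out. The steps were tested on simulated data. The genes, lists and rules for naming genes were chosen with earlier results of these data known: every gene of the first pair of clock lists, the 3 called genes of smallest p per comparison from the others, and the 2 most alike genes per clock gene. SPHK2 and THRA were added because their exons overlap. Some genes of these lists are counted but not reported here by name.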

Additional observations from a re-analysis of the deposited data

Results flagged for a closer look

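The palmitate response differed between knockdown and control cells, by the interaction term of edgeR's quasi-likelihood fit, for 2 of the 10 clock genes, where 14.5% of all genes tested were called. BHLHE40 had an interaction of 1.14 (SE 0.08, adjusted p = 1.76e-09), with opposite directions in the cell types: 35.9, 35.3 and 39.7 CPM in shACSL5_PA against 21.6, 20.8 and 20.9 CPM in shACSL5 libraries, and 78.7, 80.0 and 77.3 CPM in shControl_PA against 95.3, 101 and 102 CPM in shControl libraries. NR1D1 had an interaction of -0.46 (SE 0.15, adjusted p = 0.0364), with adjusted p between 0.0157 and 0.104 over its 19 alternatives.

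The same term was called for other genes of the clock lists. TIMELESS had -0.24 (SE 0.07, adjusted p = 0.0199). Among the kinases and ligases, CSNK2A2 had 0.22 (SE 0.06, adjusted p = 0.0241), USP7, which removes ubiquitin from CRY proteins, had -0.19 (SE 0.06, adjusted p = 0.0248), and BTRC, a ligase for PER proteins, had 0.24 (SE 0.08, adjusted p = 0.0467). Among the cofactors, outputs and inputs, CDKN1A had 0.57 (SE 0.09, adjusted p = 0.000146), NAMPT had -0.31 (SE 0.05, adjusted p = 0.000325), and SFPQ, a splicing factor that binds PER complexes, had -0.24 (SE 0.04, adjusted p = 0.000338).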

How the results depend on the processing

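Over the alternatives other than leaving out a library, 369 of the member changes kept direction and call, 8 gained a call, 11 lost one and 2 changed sign. When each library was left out in turn, 553 kept both, 4 gained a call, 32 lost one and 11 changed sign. Without single libraries the number of clock genes called ran from 6 to 9 for the knockdown without palmitate, 3 to 3 under palmitate, 5 to 6 for palmitate in knockdown cells, 4 to 6 in control cells and 1 to 3 for the interaction. For the 52 other clock pathway genes it ran from 38 to 42, 30 to 36, 14 to 22, 18 to 22 and 9 to 14 in that order of comparisons. The interaction called 1 clock gene instead of 2 without shControl replicate 2 or 3, shControl_PA replicate 1 or 2, shACSL5 replicate 1 or 3, or shACSL5_PA replicate 1. In the main fit the shares of all genes called were 62.3%, 50.5%, 21.9%, 28.7% and 14.5%, in that order of comparisons. The shares without single libraries are not given here, so a shift of these counts cannot be set against one over all genes.

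The changes of sign were all of uncalled values near 0. NR1D2 with palmitate in control cells turned to -0.0435 with library sizes alone and to -0.000461 with a filter at a mean CPM of 1, and ran from -0.0151 to 0.0287 without single libraries. In the knockdown under palmitate, PER1 ran from -0.14 to 0.0722, CRY2 from -0.10 to 0.10 and NR1D2 from -0.11 to 0.00266, and PER3 in the interaction ran from -0.10 to 0.16. Whether the replicate numbers pair the samples cannot be told from the correlations of deviations. For the knockdown without palmitate, same-number values ran from 0.0357 to 0.191, against -0.130 to 0.0565 for other numbers. Under palmitate they ran from -0.0515 to 0.119, against -0.124 to 0.156. For palmitate they ran from -0.0618 to 0.164 in knockdown cells, against -0.148 to 0.131, and from -0.0822 to -0.0186 in control cells, against -0.0140 to 0.0598. With the replicate block, 4 clock genes were called for the interaction against 2, CRY1 (adjusted p = 0.0459) and NR1D2 (0.0380) being added. CRY1 was also called with palmitate in knockdown cells (0.0498). The counts were 9 for the knockdown without palmitate, 3 under it, 7 for palmitate in knockdown cells and 5 in control cells. The share of all genes called with the block is not given here either. The cause of the shifts with the block was not tested. Depth limits DBP most, at 11 to 35 counts per library, then PER3 at 26 to 74 and PER2 at 37 to 127.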
